A study of Canis lupus familiaris with 9 samples.

Results

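The 40 genes described here encode the machinery of mitosis: the chromosome and proliferation markers TOP2A and MKI67, cyclins with CDK1 and FOXM1, activators of the anaphase-promoting complex, mitotic kinases, spindle checkpoint proteins, the chromosomal passenger complex, kinetochore proteins, spindle assembly factors and cytokinesis factors. They were chosen by gene symbol, with earlier results of these data known. A total of 38 of the 40 were found under their symbols among the 28008 features measured. CCNB1 and CENPF are not analysed here. A total of 37 passed the filter on low values, 10 or more normalised reads in 3 or more of the libraries compared. The exception, the cyclin gene CCNB2, was listed at 0 in all 9 libraries. Whether its reads were assigned to another feature is not known, so the 0 is not read as its level.

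RNA sequencing covered 9 canine libraries in 3 groups of 3. Boxer lymphomas 1, 2 and 3 came from CD4+ PTCL (peripheral T cell lymphoma, a malignancy of mature T cells), in a castrated male aged 6 years, a spayed female aged 8 years and a castrated male aged 6 years. Other-breed lymphomas 1, 2 and 3 came from CD4+ PTCL in a spayed female Cavalier King Charles Spaniel aged 3 years, a spayed female Rhodesian Ridgeback aged 4 years and a castrated male Collie aged 11 years. Controls 1, 2 and 3 were sorted CD4+ T cells of healthy female hounds aged 1 year that had not been neutered. The labels give no tissue and no sorting for the lymphomas and do not state that each library came from its own dog, so the p-values measure only the spread between libraries. Disease, breed, age, neutering and any difference in sorting cannot be told apart between lymphomas and controls. Sex was also uneven, since all controls were female and the lymphomas came from both sexes.

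In mitosis, cyclin-dependent kinase CDK1 with its cyclins drives entry, and chromosomes condense and attach to spindle microtubules through kinetochores, protein complexes built on centromeres marked by the histone variant CENPA. The spindle checkpoint holds the anaphase-promoting complex inactive until every kinetochore is attached, and the complex, once activated by CDC20, triggers chromosome separation and exit. Resting T cells seldom divide and transcribe these genes at low levels, and activated or malignant T cells that divide transcribe them more.

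The libraries held 11710623 to 18488468 reads. Markers of cell types are counted here beside the 19.4% of all genes tested that were higher and the 15.7% that were lower in lymphomas than in controls. Of 11 T cell markers found, 1 was higher and 2 were lower in the lymphomas, and their summed value ranged over 63044 to 110632 across the lymphomas, against 101275 to 103447 across the controls (CD4 and CD247 are not analysed here). Macrophage markers were higher for 8 of 10 genes, with sums of 903 to 21193 across the lymphomas, against 128 to 198 across the controls. Fibroblast markers were higher for 7 of 10, with sums of 147 to 11706 across the lymphomas, against 20.6 to 60.1 across the controls, where LUM and MMP2 were at 0. The other lists were higher for 4 of 5 neutrophil, 4 of 6 dendritic cell, 4 of 6 endothelial, 1 of 6 CD8 and killer cell, 1 of 5 erythroid and 0 of 7 B cell genes, and none of their members was lower. Other-breed lymphoma 1 had the lowest macrophage and fibroblast sums of the 6 lymphomas (903 and 147) and the highest B cell sum (6234, against 1382 to 1598 across the controls) and CD8 and killer cell sum (1298, against 112 to 213). The part of other cell types in the results was not tested.

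Mitotic control genes were higher in the lymphomas than in the controls across every functional group. Of the 37 genes tested, 36 rose and 0 fell in the 6 lymphomas against the 3 controls (limma on log2(value + 1), Benjamini-Hochberg over 15977 genes, adjusted p of 0.05). Over all genes tested, 19.4% rose and 15.7% fell. At an unadjusted p under 0.05, 36 of the 37 rose and 0 fell, and 3981 of the 15977 genes rose and 3360 fell. At an adjusted p of 0.05, edgeR (19.4% of all genes higher, 14.3% lower) called 36 higher and 0 lower. DESeq2 (25.5% higher, 16.6% lower) also called 36 higher and 0 lower. With age as a covariate 30 rose, and 6.56% of all genes rose and 5.54% fell. The median log2 fold change was 2.78 over the 37 genes and 0.05 over all genes. In 36 of the 37, every lymphoma lay above every control, against 18.5% of all genes. In 28 the lowest lymphoma was at least 2-fold above the highest control, a gap that was not counted over all genes. The exception in both counts of 36 was INCENP. A total of 36 of the 37 had at least 10 normalised reads in every library, and CENPA was below that in controls 1 and 2. More cells in mitosis and more of these RNAs per dividing cell cannot be told apart in bulk libraries.

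The summed reads of the 37 genes made up 0.393% ± 0.081 of all reads in the Boxer lymphomas, 0.255% ± 0.074 in the other-breed lymphomas and 0.0508% ± 0.0041 in the controls (SD, n = 3 each). Over the 6 lymphomas the share was 0.184% to 0.462%, and over the controls 0.0479% to 0.0555%.

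**Figure D1:**
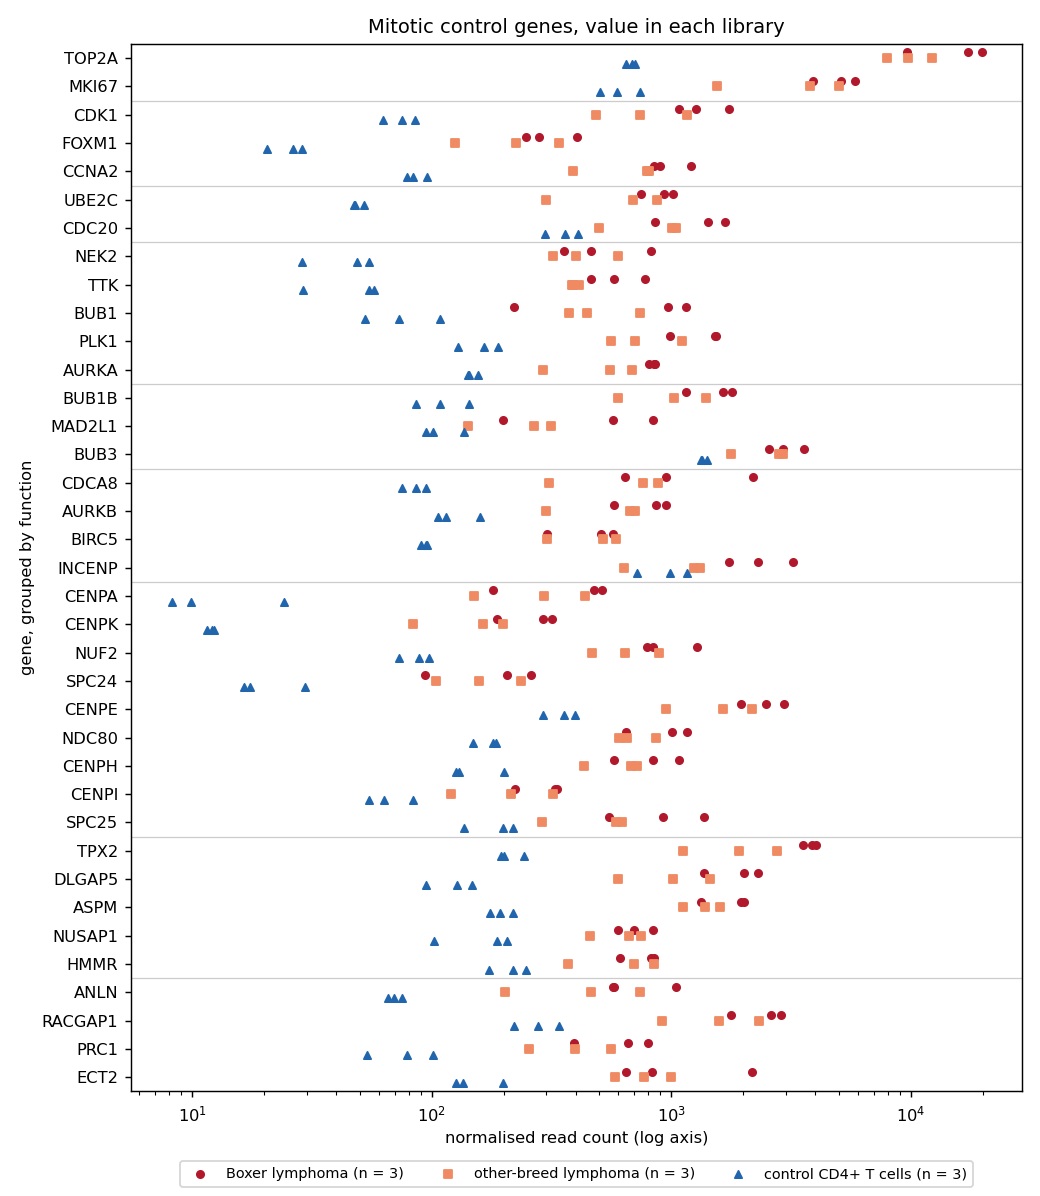
Normalised read count (log axis) of each of the 37 mitotic control genes tested, 1 point per library, in Boxer lymphomas (circles), other-breed lymphomas (squares) and controls (triangles). Among the lymphoma points TOP2A lies furthest to the right, at 7981 or more in every lymphoma. In the controls it is at 708 or less, and BUB3 lies further right there. INCENP and MAD2L1 have the lowest ratios of the lowest lymphoma to the highest control (0.545 and 1.04).

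TOP2A and MKI67 are the usual markers of dividing cells. TOP2A (ENSCAFG00000016090), the topoisomerase that untangles sister DNA molecules, had 9609, 19830.0 and 17342 normalised reads in Boxer lymphomas 1 to 3, 12309, 7981 and 9780.3 in other-breed lymphomas 1 to 3, and 684, 645 and 708 in the controls. The lowest lymphoma was 11.3-fold above the highest control, and Boxer lymphomas 2 and 3 were the highest. Its log2 fold change in lymphomas against controls was 4.16 ± 0.28 (SE; limma adjusted p = 1.96e-05). MKI67 (ENSCAFG00000013255), which encodes the Ki-67 protein that coats mitotic chromosomes, had 3917, 5856 and 5102 in Boxer lymphomas, 5012, 1557 and 3811 in other-breed lymphomas and 506, 594 and 742 in controls. The groups did not overlap, but other-breed lymphoma 2 was only 2.1-fold above the highest control. The log2 fold change of MKI67 was 2.68 ± 0.36 (limma adjusted p = 0.000571).

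The 3 genes of mitotic entry that were tested all rose. CDK1 (ENSCAFG00000012904), the kinase that starts mitosis, had 1082, 1738 and 1263 normalised reads in Boxer lymphomas, 1163, 486 and 742 in other-breed lymphomas and 75.1, 62.7 and 85.2 in controls. Every lymphoma was well above the controls, with Boxer lymphoma 2 highest and other-breed lymphoma 2 lowest. CDK1 rose by 3.74 ± 0.35 on the log2 scale (SE; limma adjusted p = 7.98e-05). CCNA2 (ENSCAFG00000004133), the cyclin of S phase and early mitosis, averaged 823 ± 262 in the lymphomas (SD, n = 6) and 85.9 ± 8.69 in the controls (SD, n = 3), a log2 fold change of 3.18 ± 0.31 (limma adjusted p = 8.66e-05). FOXM1 (ENSCAFG00000015642), a transcription factor that switches on many G2 and mitosis genes, averaged 270.3 ± 96.7 in the lymphomas (SD, n = 6) and 25.2 ± 4.25 in the controls (SD, n = 3). It rose by 3.30 ± 0.37 (limma adjusted p = 0.000207).

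The activators of the anaphase-promoting complex moved by unequal amounts. UBE2C (ENSCAFG00000009745), the ubiquitin-conjugating enzyme that works with the complex, had 747, 1020.1 and 937 normalised reads in Boxer lymphomas, 871, 300.5 and 692 in other-breed lymphomas and 47.8, 52.0 and 47.2 in controls. The controls varied little and the lowest lymphoma lay 5.78-fold above them. Its log2 fold change was 3.83 ± 0.35 (SE; limma adjusted p = 6.94e-05). CDC20 (ENSCAFG00000005259), which activates the complex at anaphase, had 859, 1676 and 1426 in Boxer lymphomas, 1044, 498 and 1004 in other-breed lymphomas and 359, 297 and 409 in controls. Controls had far more CDC20 reads than UBE2C reads, and the groups stood close without overlap. CDC20 rose by 1.52 ± 0.33 (limma adjusted p = 0.00633), a call that did not hold once age entered the model (adjusted p = 0.186).

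All 5 mitotic kinase genes rose. PLK1 (ENSCAFG00000017658), the polo-like kinase of centrosome maturation and kinetochore attachment, had 984, 1531 and 1523 normalised reads in Boxer lymphomas, 1106, 561 and 703 in other-breed lymphomas and 128, 166 and 189 in controls. Its log2 fold change was 2.65 ± 0.33 (SE; limma adjusted p = 0.000342). AURKA (ENSCAFG00000029331), the Aurora kinase of spindle poles, had 846, 853 and 804 in Boxer lymphomas, 687, 291 and 554 in other-breed lymphomas and 142, 156 and 144 in controls. The Boxer lymphomas were nearly equal and above every other-breed lymphoma, and AURKA rose by 2.10 ± 0.33 against controls (limma adjusted p = 0.00118). TTK (ENSCAFG00000002842), the checkpoint kinase also called MPS1, averaged 500.5 ± 153 in the lymphomas (SD, n = 6) and 47.0 ± 15.7 in the controls (SD, n = 3) and rose by 3.40 ± 0.31. NEK2 (ENSCAFG00000012136), a kinase of centrosome separation, averaged 493 ± 188 in the lymphomas (SD, n = 6) and 44.0 ± 13.6 in the controls (SD, n = 3) and rose by 3.43 ± 0.34. BUB1 (ENSCAFG00000007062), the kinase that recruits checkpoint proteins to kinetochores, was uneven among the lymphomas. It had 220.0, 1153 and 970.4 in Boxer lymphomas, 738, 373 and 446 in other-breed lymphomas and 108, 52.8 and 73.2 in controls. Boxer lymphoma 1 was the lowest lymphoma for BUB1, and the gene rose by 2.88 ± 0.50 (limma adjusted p = 0.00201).

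The other spindle checkpoint genes had the lowest median log2 fold change of the 9 functional groups, 1.56, and BUB1B stood well above it. BUB1B (ENSCAFG00000008877), which encodes the BUBR1 subunit of the mitotic checkpoint complex, had 1148, 1788 and 1641 normalised reads in Boxer lymphomas, 1402, 601 and 1023 in other-breed lymphomas and 86.0, 108 and 143 in controls. It rose by 3.43 ± 0.33 on the log2 scale (SE; limma adjusted p = 8.59e-05). BUB3 (ENSCAFG00000012700), the partner that docks BUB1 and BUBR1 at kinetochores, had 2567, 3577 and 2917 in Boxer lymphomas, 2926, 1779.9 and 2822 in other-breed lymphomas and 1417, 1327 and 1338 in controls. BUB3 was thus abundant in controls, and its lowest lymphoma was 1.26-fold above the highest control. It rose by 0.99 ± 0.20 (limma adjusted p = 0.00405), and with age in the model the adjusted p was 0.142.

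MAD2L1 (ENSCAFG00000016467), the checkpoint protein that inhibits CDC20, had 199, 842 and 569.5 normalised reads in Boxer lymphomas, 267, 142 and 315 in other-breed lymphomas and 136, 94.9 and 101 in controls. Boxer lymphomas 2 and 3 were high, and other-breed lymphoma 2 was 1.04-fold above control 1. MAD2L1 rose by 1.56 ± 0.50 on the log2 scale (SE; limma adjusted p = 0.036), and that call ended under 8 of 22 alternatives, among them leaving out any control (adjusted p = 0.0729, 0.122 and 0.111), Boxer lymphoma 3 (0.0638) or other-breed lymphoma 3 (0.0535), and fitting age as well (0.514).

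Of the chromosomal passenger complex, which corrects wrong attachments and later directs cytokinesis, 3 of 4 genes rose. AURKB (ENSCAFG00000017008), its kinase, had 575, 955 and 865 normalised reads in Boxer lymphomas, 673, 300.5 and 709 in other-breed lymphomas and 159.7, 106 and 115 in controls, and rose by 2.35 ± 0.34 on the log2 scale (SE; limma adjusted p = 0.000806). BIRC5 (ENSCAFG00000005302), which encodes survivin, had 302, 572 and 511 in Boxer lymphomas, 520.3, 304 and 587 in other-breed lymphomas and 95.5, 90.0 and 94.5 in controls, and rose by 2.25 ± 0.27 (limma adjusted p = 0.000315). Boxer lymphoma 1 and other-breed lymphoma 2 were the low lymphomas for survivin, and both were above the controls. CDCA8 (ENSCAFG00000003278), which encodes borealin, averaged 956 ± 649 in the lymphomas (SD, n = 6), with 2198 in Boxer lymphoma 2, and 85.2 ± 9.69 in the controls (SD, n = 3), a rise of 3.24 ± 0.47 (limma adjusted p = 0.000845).

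INCENP (ENSCAFG00000015888), the scaffold of the passenger complex, was the gene that did not pass. It had 1741, 3210.0 and 2295 normalised reads in Boxer lymphomas, 1322, 633 and 1239 in other-breed lymphomas and 721, 984 and 1162 in controls. The Boxer lymphomas lay above every control, and other-breed lymphoma 2 lay below every control. The log2 difference between lymphomas and controls was 0.71 ± 0.43 (SE; 95% interval -0.23 to 1.66; limma adjusted p = 0.211). It passed under 3 of 22 alternatives, namely array weights (adjusted p = 0.0427), without other-breed lymphoma 2 (0.0383), and without other-breed lymphomas 1 and 2 (0.0243).

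All 9 centromere and kinetochore genes rose, with a median log2 fold change of 2.46. CENPA (ENSCAFG00000004457), the histone of centromeres, had 181, 515 and 474 normalised reads in Boxer lymphomas, 436, 149.8 and 293 in other-breed lymphomas and 8.19, 9.91 and 24.1 in controls. Its rise of 4.50 ± 0.50 on the log2 scale (SE; limma adjusted p = 0.00019) was the largest of the 37, from control values of few reads. CENPK (ENSCAFG00000007392), a subunit of the constitutive centromere network, had 188, 292 and 317 in Boxer lymphomas, 198, 83.6 and 163 in other-breed lymphomas, against 11.6 to 12.3 in controls. The controls were nearly equal and low, and CENPK rose by 3.88 ± 0.43 (limma adjusted p = 0.000186). CENPH (ENSCAFG00000007717) and CENPI (ENSCAFG00000017593), neighbours of CENPK in that network, rose by 2.21 ± 0.29 and 1.86 ± 0.36. CENPH ranged over 431 to 1076 normalised reads across the lymphomas, against 126 to 201 across the controls, and CENPI over 119.9 to 333 against 54.5 to 83.3. The CENPI call did not hold once age entered the model (adjusted p = 0.0761). CENPE (ENSCAFG00000010836), the kinesin that carries chromosomes to the spindle equator, averaged 2025 ± 692 in the lymphomas (SD, n = 6) and 348 ± 53.3 in the controls (SD, n = 3) and rose by 2.46 ± 0.31.

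The NDC80 complex is the microtubule-binding part of the kinetochore, and all 4 of its subunits were measured. NDC80 (ENSCAFG00000018395) had 647, 1167 and 1004 normalised reads in Boxer lymphomas, 866, 603 and 656 in other-breed lymphomas and 180.2, 149 and 185 in controls. NUF2 (ENSCAFG00000013259), its direct partner, had 793, 840.0 and 1282 in Boxer lymphomas, 641, 468 and 890.5 in other-breed lymphomas and 88.7, 72.7 and 97.2 in controls. Neither gene overlapped between lymphomas and controls, and the log2 rises were 2.22 ± 0.24 for NDC80 and 3.18 ± 0.29 for NUF2 (SE; limma adjusted p = 0.000167 and 6.67e-05). SPC24 (ENSCAFG00000017538) had 93.5, 259 and 206 in Boxer lymphomas, 235, 104 and 157 in other-breed lymphomas and 16.4, 17.3 and 29.6 in controls, and SPC25 had 551, 1376 and 928 in Boxer lymphomas, 589, 288 and 624 in other-breed lymphomas and 218, 198 and 136 in controls. Boxer lymphoma 1 was the lowest lymphoma for SPC24 and other-breed lymphoma 2 for SPC25. SPC24 rose by 2.95 ± 0.42 and SPC25 (ENSCAFG00000011859) by 1.84 ± 0.41 (limma adjusted p = 0.00075 and 0.00728). The SPC25 call did not hold once age entered the model (adjusted p = 0.218). Within a library the ratio of NUF2 to NDC80 reads was 1.02 ± 0.30 in the lymphomas (SD, n = 6) and 0.502 ± 0.020 in the controls (SD, n = 3). The ratio of SPC24 to SPC25 reads was 0.266 ± 0.094 in the lymphomas and 0.127 ± 0.079 in the controls, and the groups overlapped. These are ratios of read counts, not levels per length, and no test was made of them.

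All 5 spindle assembly genes rose. TPX2 (ENSCAFG00000007075), which activates Aurora A on spindle microtubules, had 3544, 4014 and 3857 normalised reads in Boxer lymphomas, 2767, 1122 and 1927 in other-breed lymphomas and 242, 201 and 194 in controls. The Boxer lymphomas were close together and above the other-breed lymphomas, and TPX2 rose by 3.63 ± 0.37 on the log2 scale against controls (SE; limma adjusted p = 0.000119). ASPM (ENSCAFG00000011403), a spindle pole protein, had 1334, 2014 and 1949 in Boxer lymphomas, 1598, 1383 and 1114 in other-breed lymphomas and 192, 174 and 219 in controls. Its lymphoma values varied less than those of most of the 37 genes (SD 0.33 on the log2 scale, against a median of 0.60), and it rose by 2.97 ± 0.21 (limma adjusted p = 2.25e-05). DLGAP5 (ENSCAFG00000015026), a stabiliser of kinetochore microtubules, averaged 1459 ± 626 in the lymphomas (SD, n = 6) and 123 ± 26.6 in the controls (SD, n = 3) and rose by 3.46 ± 0.38. NUSAP1 (ENSCAFG00000009538), which bundles spindle microtubules, rose by 2.04 ± 0.27, and HMMR (ENSCAFG00000017192), a spindle protein that is also a hyaluronan receptor, by 1.67 ± 0.28. NUSAP1 ranged over 457 to 835 across the lymphomas, against 102 to 206 across the controls, and HMMR over 369.9 to 849.6 against 174 to 247. The HMMR call did not hold once age entered the model (adjusted p = 0.0577).

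All 4 cytokinesis genes rose, with a median log2 fold change of 2.71. RACGAP1 (ENSCAFG00000008340), a subunit of the centralspindlin complex at the cell equator, had 1773, 2862 and 2610.3 normalised reads in Boxer lymphomas, 2327, 919 and 1588 in other-breed lymphomas and 338, 277 and 220.4 in controls. It rose by 2.78 ± 0.33 on the log2 scale (SE; limma adjusted p = 0.000279), and every lymphoma was above every control. ECT2 (ENSCAFG00000015455), the exchange factor that turns on RhoA for furrowing, had 833, 2178 and 649 in Boxer lymphomas, 997, 582 and 766 in other-breed lymphomas and 198, 135 and 126 in controls. Boxer lymphoma 2 stood far above the other lymphomas, and ECT2 rose by 2.57 ± 0.38 (limma adjusted p = 0.000844). PRC1 (ENSCAFG00000012140), which cross-links midzone microtubules, ranged over 256 to 802 across the lymphomas, against 53.7 to 101 across the controls, and rose by 2.65 ± 0.37. ANLN (ENSCAFG00000003243), the anillin scaffold of the contractile ring, averaged 601 ± 282 in the lymphomas (SD, n = 6) and 70.0 ± 4.78 in the controls (SD, n = 3) and rose by 2.93 ± 0.42.

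The genes did not all move by the same amount. To describe this, each gene was set against the mean log2 value of the 37 genes in its library. On that relative scale, 10 genes were higher in every lymphoma than in every control, led by CENPA (a difference of 1.77), TOP2A (1.42), CENPK (1.15), UBE2C (1.10) and CDK1 (1.01), followed by TPX2, DLGAP5, BUB1B, FOXM1 and CCNA2. A further 7 were lower in every lymphoma on the relative scale, namely INCENP (-2.02), BUB3 (-1.74), CDC20, MAD2L1 (-1.18), HMMR, SPC25 (-0.90) and CENPI (-0.88). In normalised reads, without that subtraction, 6 of these 7 rose. The other 20 overlapped, and MKI67 lay at -0.05, close to the mean of the set. Since the mean of the same 37 genes was subtracted, genes with unequal rises must fall on both sides of 0. The share of all genes on this scale was not computed, and no test was made of these relative values.

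**Figure D2:**
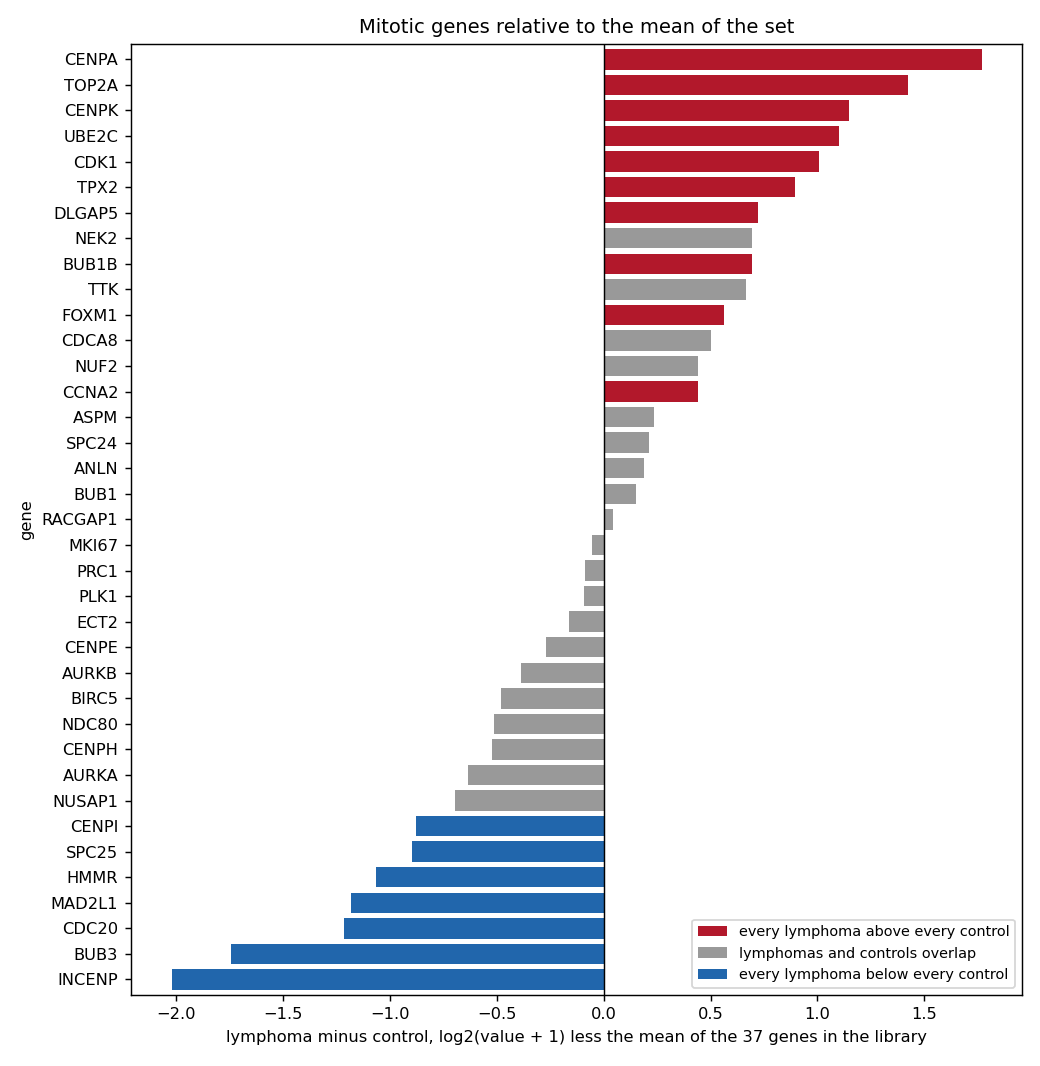
Lymphoma minus control difference of each gene in log2(value + 1) after the mean of the 37 genes in the same library was subtracted, as bars sorted by size, coloured by whether the 6 lymphomas and 3 controls overlap. CENPA lies at 1.77 and INCENP at -2.02, and 20 of the 37 bars belong to genes whose groups overlap.

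The makeup of the mitotic reads therefore differed between the groups. TOP2A took 25.6% ± 2.92 of the reads of the 37 genes in the lymphomas (SD, n = 6) and 8.76% ± 0.053 in the controls (SD, n = 3). BUB3 took 5.76% ± 0.96 in the lymphomas and 17.6% ± 0.95 in the controls, and INCENP 3.31% ± 0.77 in the lymphomas and 12.3% ± 2.74 in the controls. MKI67 took a similar share in both, 8.30% ± 1.40 in the lymphomas and 7.92% ± 1.35 in the controls. Shares of a total move together, since a gene with more of the reads leaves less for the rest.

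Partners within a complex or pathway differed in ratio in some cases and overlapped in others. Each ratio restates the log2 fold changes given above for its genes. No test was made of the ratios, and how often other pairs of genes separate the groups was not computed. The ratio of BUB1B to BUB3 reads was 0.448 ± 0.085 in the lymphomas (SD, n = 6) and 0.0829 ± 0.023 in the controls (SD, n = 3). The ratio of AURKB to INCENP reads was 0.427 ± 0.108 in the lymphomas and 0.143 ± 0.069 in the controls, and that of CDCA8 to INCENP 0.539 ± 0.135 in the lymphomas and 0.0923 ± 0.0235 in the controls. The ratio of TPX2 to AURKA reads ranged over 3.48 to 4.80 across the lymphomas, against 1.29 to 1.70 across the controls. TOP2A reads were 3.23 ± 1.03 times MKI67 reads in the lymphomas, with 5.12 in other-breed lymphoma 2, and 1.13 ± 0.202 times in the controls. In the centromere network, CENPH to CENPK reads stood at 3.74 ± 0.91 in the lymphomas and 12.7 ± 3.18 in the controls. Other ratios overlapped between the groups. RACGAP1 to ECT2 reads ranged over 1.31 to 4.02 across the lymphomas, against 1.71 to 2.04 across the controls. SPC25 to NDC80 reads ranged over 0.477 to 1.18 across the lymphomas, against 0.735 to 1.33 across the controls, and CCNA2 to CDK1 reads over 0.68 to 1.09 against 0.924 to 1.33.

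Boxer lymphomas and other-breed lymphomas were each compared with the same 3 controls, so these comparisons are not independent. All 37 genes rose in the Boxer lymphomas (18.6% of all genes rose and 14.4% fell), and 35 rose in the other-breed lymphomas (13.8% of all genes rose and 10.7% fell). The median log2 fold change was 3.04 in Boxer and 2.45 in other-breed lymphomas. The pair that did not pass in other-breed lymphomas was MAD2L1, at 2.05 in Boxer lymphomas (limma adjusted p = 0.0156) and 1.06 in other-breed lymphomas (0.165), and INCENP, at 1.32 in Boxer lymphomas (0.0157) and 0.11 in other-breed lymphomas (0.832). The INCENP call in Boxer lymphomas ended without control 1 (adjusted p = 0.0625), and the MAD2L1 call without control 2 (0.0592) or control 3 (0.0542). TOP2A had log2 fold changes of 4.45 in Boxer and 3.86 in other-breed lymphomas, and CENPA of 4.70 in Boxer and 4.30 in other-breed lymphomas. BIRC5 had nearly equal values, 2.24 in Boxer and 2.27 in other-breed lymphomas. The weaker calls in other-breed lymphomas were those of CDC20 at 1.19 (limma adjusted p = 0.0318), SPC25 at 1.38 (0.0343) and BUB3 at 0.85 (0.0216). The CDC20 and SPC25 calls ended under 6 of 19 alternatives each, that of BUB3 under 5, that of CENPI under 3 and that of BUB1 under 1.

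**Figure D3:**
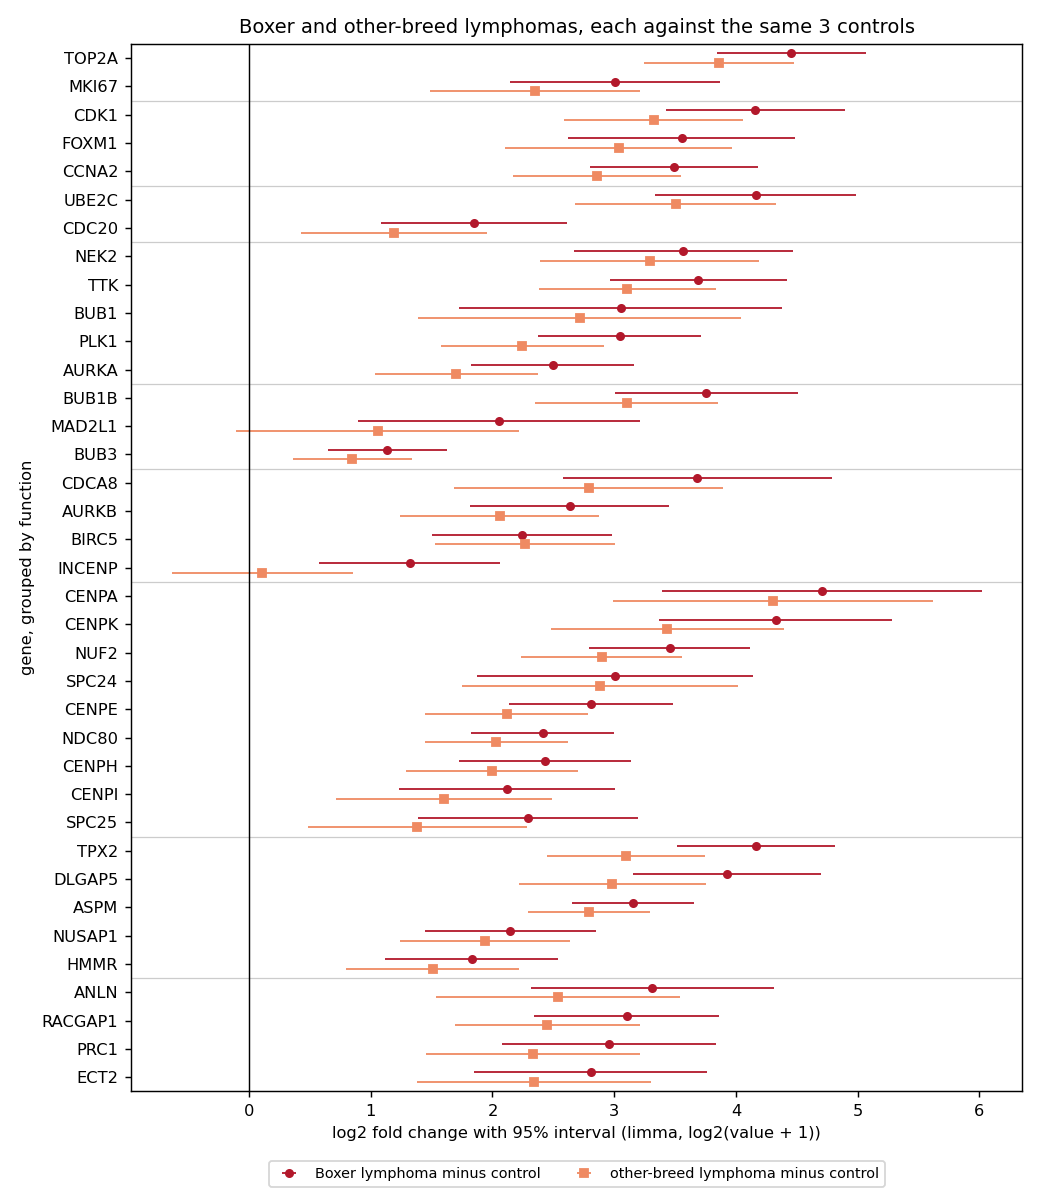
Log2 fold change of each gene in Boxer lymphomas (circles) and other-breed lymphomas (squares), each against the same 3 controls, with 95% intervals from limma. The Boxer point lies to the right of the other-breed point for 36 of the 37 genes, the exception being BIRC5, and the other-breed intervals of MAD2L1 and INCENP include 0.

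The difference between the lymphoma groups was then tested directly in the 6 lymphomas. None of the 37 genes passed (limma, 0 higher and 0 lower, and 0.0% of 15112 genes in either direction). At an unadjusted p under 0.05, 4 genes were higher in Boxer lymphomas and 0 lower, and 4.98% of all genes were below that value in either direction. EdgeR also called 0 of the 37, and 0.0% of all genes in either direction. At an unadjusted p under 0.05 edgeR gave 4 of the 37 and 4.84% of all genes. DESeq2 called 0 of the 37, with 0.291% of all genes higher and 0.384% lower. At an unadjusted p under 0.05 DESeq2 gave 5 of the 37 and 6.94% of all genes. The 4 with the smallest p were INCENP, TPX2, DLGAP5 and PLK1. INCENP had a log2 difference of 1.21 (95% interval 0.36 to 2.05, limma adjusted p = 0.881). TPX2 lay at 1.06 (0.29 to 1.84), DLGAP5 at 0.94 (0.08 to 1.81) and PLK1 at 0.80 (0.05 to 1.55). These intervals are not adjusted for the choice of 4 among 37 genes, and none of the 4 passed under any of 16 alternatives. The difference was above 0 for 36 of the 37 genes, or 97.3%, against 52.0% of all genes, and its median was 0.62 against 0.02. These 36 are not independent, since Boxer lymphoma 2 was the highest lymphoma for 32 of the 37 and other-breed lymphoma 2 the lowest for 32. For TOP2A it was 0.59 (95% interval -0.19 to 1.38), so a difference of either sign is within the error. Every Boxer lymphoma lay above every other-breed lymphoma for 5 of the 37 genes (INCENP, CCNA2, TTK, AURKA and TPX2), against 4.99% of all genes.

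The order among the lymphomas went largely with single libraries. Boxer lymphoma 2 was the highest lymphoma for 32 of the 37 genes, or 86.5%, and for 16.8% of all genes. Other-breed lymphoma 2 was the lowest for 32 of the 37, or 86.5%, and for 3027 of the 15112 genes tested among lymphomas. The median log2 value of the 37 genes over the control mean was 2.62, 3.38 and 3.25 in Boxer lymphomas 1 to 3, 3.03, 1.82 and 2.56 in other-breed lymphomas 1 to 3, and 0.04, -0.07 and 0.07 in the controls. Boxer lymphoma 1 and other-breed lymphoma 1 thus stood in the reverse order of their groups. The 37 genes lay above the highest control in each lymphoma, except in other-breed lymphoma 2, where 36 did.

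**Figure D4:**
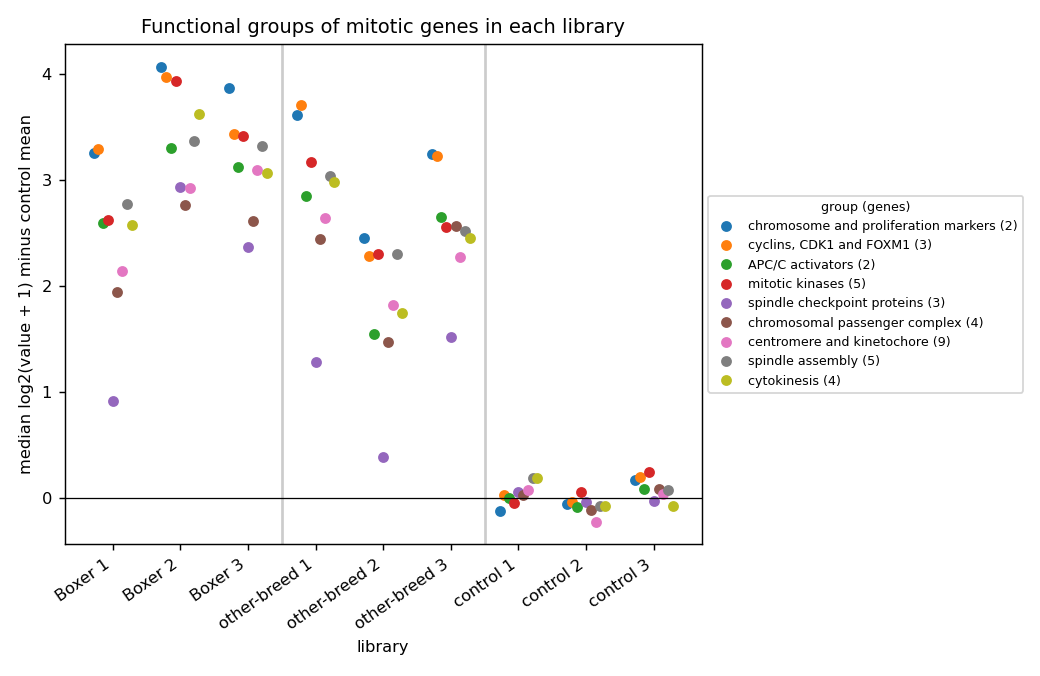
Median over the genes of each functional group of log2(value + 1) minus the control mean, per library, with 1 point per functional group. Other-breed lymphoma 2 has the lowest point of the 6 lymphomas in each of the 9 groups shown, and the spindle checkpoint group is the lowest in 5 of the 6 lymphomas.

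The spread among lymphomas was wider than among controls for these genes, with a median SD on the log2 scale of 0.60 in the lymphomas and 0.28 in the controls. Over all genes it was 0.56 in the lymphomas and 0.25 in the controls. MAD2L1 varied most among the lymphomas (SD 0.95), followed by BUB1 (0.91) and CDCA8 (0.91), and NUSAP1 varied least (0.30).

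Other genes of mitosis, taken from a list of 127 of which 113 were found and tested, moved less uniformly. In the lymphomas 59 rose, 8 fell and 46 did not pass, with a median log2 fold change of 0.79, where 19.4% of all genes tested rose and 15.7% fell. Counts by list are to be read against the same shares. Other inner kinetochore genes rose in 11 of 14 cases (median 1.91), among them CENPN at 2.99 and CENPL at 2.26, both partners of the CENPA nucleosome or its network. Other outer kinetochore genes rose in 14 of 17 (median 1.06), among them KNL1, the platform for BUB1 and BUB3, at 3.00, and SKA2, of the complex that tracks microtubule ends, at 1.67. Other cytokinesis genes rose in 6 of 9 and fell in 1 (median 2.84), among them SHCBP1 at 4.07 and the citron kinase gene CIT at 3.40.

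The remaining lists were mixed. Other genes of the anaphase-promoting complex, its regulators and separase rose in 4 of 14 and fell in 2 (median 0.27). The separase gene ESPL1 (3.1) and the inhibitor gene FBXO5 (1.87), neither a subunit of the complex, were among those that rose. The securin gene PTTG1 is not analysed here. Cohesin and condensin genes rose in 8 of 18 and fell in 1 (median 0.70), with the condensin genes NCAPG at 3.26 and NCAPD3 at 1.78. Other entry kinase, phosphatase and DREAM complex genes rose in 7 of 20 and fell in 2 (median 0.43), with CCNF, which encodes cyclin F, at 3.79 and the centriole kinase gene PLK4 at 3.07. Other spindle and centrosome genes rose in 9 of 21 and fell in 2 (median 0.50), with FAM83D, which encodes a spindle protein, at 4.60 and HAUS8, of the augmin complex that branches microtubules, at 2.04.

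The 8 of 113 that fell are a smaller share than the 15.7% of all genes tested that fell, and are named one by one without a reading for the list. They included a phosphatase that activates CDK1. CDC25B had 142, 745 and 157 normalised reads in Boxer lymphomas, 152, 102 and 126 in other-breed lymphomas and 1563, 1776 and 1779.9 in controls. Every lymphoma was below every control, with Boxer lymphoma 2 the least so, and CDC25B fell by 3.25 ± 0.53 on the log2 scale (SE; limma adjusted p = 0.00147), a call that held in all 21 alternatives that gave a p. NEK7, a kinase of spindle formation, had 314, 517 and 449 in Boxer lymphomas, 481, 1162 and 538 in other-breed lymphomas and 1828, 1381 and 1276 in controls. Other-breed lymphoma 2 was the highest lymphoma and still below the controls, and NEK7 fell by 1.48 (limma adjusted p = 0.00786). The other six were the condensin gene NCAPH2 (log2 fold change -0.89), the anaphase-promoting complex genes CDC26 (-1.0) and CDC16 (-0.63), the myosin gene MYH9 (-0.76), and CLASP1 (-0.53) and NUMA1 (-0.40), which encode a microtubule plus-end protein and a spindle pole protein. The call of CLASP1 ended under 11 of 22 alternatives, that of NUMA1 under 13, that of CDC16 under 8 and those of CDC26 and MYH9 under 4 each. Without control 1, 2 or 3, 3 genes of this list fell rather than 8 (8.48%, 7.6% and 8.38% of all genes fell). Without Boxer lymphoma 2, 5 fell (15.1% of all genes). With age as a covariate, 34 rose (6.56% of all genes) and 1 fell (5.54%).

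**Figure D5:**
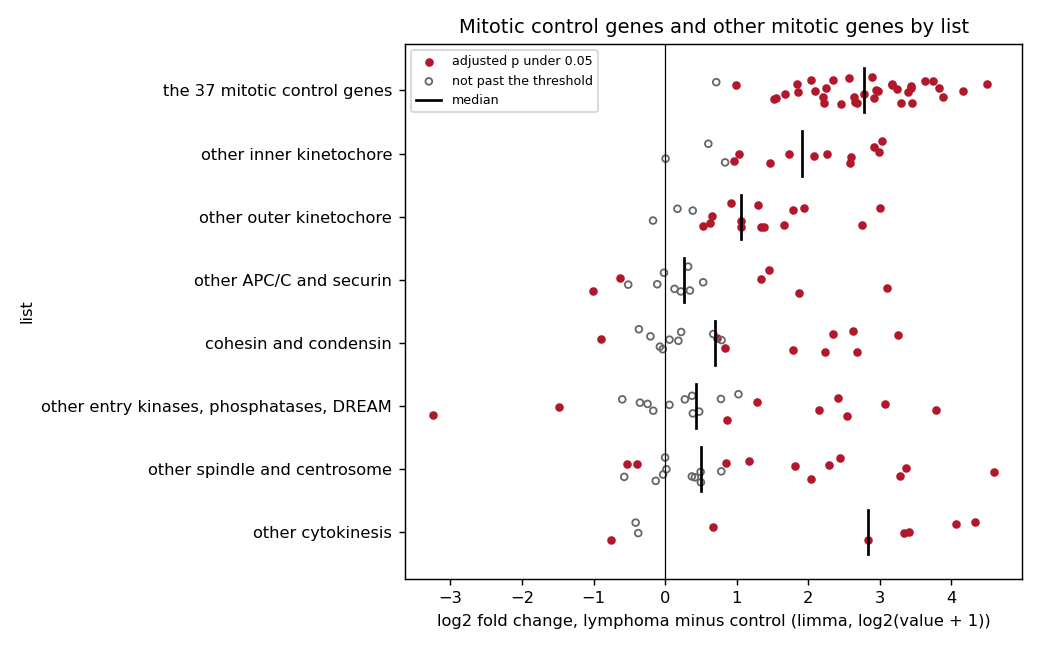
Log2 fold change in lymphomas against controls for the 37 mitotic control genes and, by list, the 113 other mitotic genes tested, with 1 point per gene, filled where the adjusted p was under 0.05, and a line at the median. The medians are 2.78 for the 37 genes and 0.27 to 2.84 for the other lists, and the leftmost point is CDC25B at -3.25.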

How the data were processed

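Poly(A) RNA was sequenced in 9 canine libraries, per the labels' protocols, and TopHat2, HTSeq and DESeq2 were used with build CanFam3.1, per the submitters' processing notes, which give no versions. No source used here says whether reads were counted by strand, so genes overlapping an antisense gene may share reads. The deposited signal is each gene's read count scaled by the authors with 1 size factor for the library. All values were whole multiples of the value of 1 read within 0.01 reads, so whole reads could be recovered (11710623 to 18488468 per library).

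Genes reaching a value of 10 in 3 or more libraries of a comparison were tested with limma 3.58.1 (R 4.3.3; trend, empirical Bayes) on log2(value + 1), which understates changes of low genes. P-values were Benjamini-Hochberg adjusted over all genes tested, with a threshold of 0.05. Boxer and other-breed lymphomas were fitted with the controls in 3 groups, and against each other without the controls. The limma fits were also run on simulated counts with the same dispersion (extra spread between libraries) in every gene and group. In the data the lymphomas varied more than the controls, so that simulation cannot show how the fits behave under unequal spread. EdgeR 4.0.16 and DESeq2 1.42.0 on the recovered reads were alternatives, with other pseudocounts, filters and scalings, array weights, a replicate block, age as a covariate, female dogs only, and leaving out libraries.

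The members, the 127 other mitotic genes and the marker lists were chosen with earlier results of these data known. All members found are named. Of the other mitotic genes, the 2 with the smallest p per list and all that fell are named, and between lymphoma groups the 4 members with the smallest p. The median log2 fold change of all genes was 0.05, 0.11 in edgeR and 0.13 in DESeq2.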

Additional observations from a re-analysis of the deposited data

Results flagged for a closer look

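Among the 37 genes, 3 had a lowest lymphoma far from the other 5 by Dixon's test at the 95% level (gap over range on the log2(value + 1) scale), and in each it was other-breed lymphoma 2. UBE2C stood at 300.5 normalised reads there (gap over range 0.682), MKI67 at 1557 (0.676) and CCNA2 at 389 (0.626). Chance flags about 1 in 20 groups.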

How the results depend on the processing

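The count of mitotic control genes higher in lymphomas against controls was 36 of 37 in the comparison as reported, where 19.4% of all genes were higher. It was 30 with age as a covariate (6.56% of all genes). It was 35 with the replicate block (17.2%) or in female dogs only (15.1%). It was 37 with array weights (30.1%) or without other-breed lymphomas 1 and 2 (22.8%). Under the other settings it was 36 (11.8% to 25.5%), and it ran over 35 to 37 when single libraries were left out (11.9% to 20.9%). Leaving out single libraries gave 36 to 37 in Boxer lymphomas (10.8% to 19.8% of all genes) and 30 to 35 in other-breed lymphomas (7.13% to 14.5%) against controls. Between the lymphoma groups it gave 0 (0.0% to 0.00685% of all genes in either direction). In other-breed lymphomas INCENP turned to -0.079 on the log2 scale without control 1, -0.082 without other-breed lymphoma 1 and -0.035 without other-breed lymphoma 3, with a range of -0.082 to 0.448 over the single libraries left out and none past the threshold. Of the other mitotic genes, 59 rose and 8 fell as reported. With no filter on low values 5 fell (10.1% of all genes), and with age as a covariate 34 rose (6.56%) and 1 fell (5.54%). With single libraries left out 50 to 64 rose (11.9% to 20.9% of all genes) and 3 to 8 fell (7.6% to 16.5%). The cause was not tested. The replicate block gave 37 in Boxer (16.3% of all genes) and 33 in other-breed lymphomas (11.3%). The labels share replicate numbers only: same-numbered pairs correlated at -0.136 to 0.104 and differently numbered pairs at -0.123 to 0.151. With 3 libraries per group, differences between lymphoma groups of the size seen here did not pass, and age cannot be fully told apart from disease, since all controls were 1 year old.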
